A study of Mus musculus with 8 samples.

Results

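Hmga2, the Igf2bp family and Lin28b are genes of the immature, growing organ, and their transcripts were followed here in embryonic mouse lung. The genes considered were 6, namely Hmga1, Hmga2, Igf2bp1, Igf2bp2, Igf2bp3 and Lin28b, and every probe set annotated to exactly 1 of these symbols was taken. That gave 15 of 45037 probe sets on the array used for lungs at E18.5, shortly before birth, and 2 of 12422 on the older array used at E11.5. The 15 comprised 4 probe sets of Hmga2, 4 of Igf2bp1, 6 of Igf2bp3 and 1 of Lin28b, and the 2 comprised 1 each of Hmga2 and Igf2bp1. Hmga1 and Igf2bp2 had no single-symbol probe set on either array and were not analysed here. The members were selected on the signal of Hmga2, which is higher in MIA bitransgenic lungs, so the Hmga2 values at E18.5 are a description and carry no test.

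MIA is a small protein secreted by melanoma cells and chondrocytes. The series asked what its misexpression does to lung gene expression at E18.5, and how lung and trachea differ at E11.5. At E18.5 there were 3 bitransgenic FVB/N embryos, which carried both transgenes of an SP-C/MIA system, and 3 single transgenic FVB/N control embryos. The SP-C promoter is that of surfactant protein C, which is active in the distal lung epithelium. The labels do not say which transgene the controls carried, nor whether the embryos shared a litter within a group. At E11.5 there was 1 array of FVB/N lung and 1 of FVB/N trachea.

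HMGA proteins are small chromatin proteins that bind AT-rich DNA through short AT-hook motifs. They are abundant in embryonic tissue and return in many tumours. Igf2bp proteins, also called IMPs, bind mRNAs in the cytoplasm and influence their stability, transport and translation, and Igf2 mRNA gave the family its name. Lin28b is an RNA-binding protein that blocks maturation of let-7 microRNAs, and let-7 in turn represses Hmga2, Lin28b and the Igf2bp genes, so that the genes are often treated as one fetal growth circuit.

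The let-7 family was not measured in this series, and its mature sequences are given because the list of let-7 targets examined further on rests on their shared seed. All 9 distinct mature 5p sequences of the family in RefSeq (GRCm38.p6) carry the same seed, bases 2 to 8, in capitals.
mmu-let-7a-5p: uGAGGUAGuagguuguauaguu
mmu-let-7d-5p: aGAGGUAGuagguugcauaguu
mmu-let-7i-5p: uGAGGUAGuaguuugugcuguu
mmu-miR-98-5p: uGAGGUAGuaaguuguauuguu

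The promoter of Hmga2 is shown beside that of Igf2bp3 because Hmga2 differed between the E18.5 groups on every probe set while most Igf2bp3 probe sets read close values in both groups. Both windows run from 250 bases before to 50 bases after an annotated start (RefSeq, GRCm38.p6). The Hmga2 window spans the outer 5' end of its gene, at 120476469. The Igf2bp3 window lies wholly inside the span of its gene, whose outer 5' end is at 49215469. The windows thus differ in their place relative to the gene. Capitals mark matches, on either strand, to the TATA box letters TATAAA, the CCAAT box, the GC box letters GGGCGG, the E-box letters CACGTG or the pyrimidine run TCTCTCTC, the last of which was added after the sequences had been seen.
Hmga2 promoter, chr10:120476420-120476719, minus strand: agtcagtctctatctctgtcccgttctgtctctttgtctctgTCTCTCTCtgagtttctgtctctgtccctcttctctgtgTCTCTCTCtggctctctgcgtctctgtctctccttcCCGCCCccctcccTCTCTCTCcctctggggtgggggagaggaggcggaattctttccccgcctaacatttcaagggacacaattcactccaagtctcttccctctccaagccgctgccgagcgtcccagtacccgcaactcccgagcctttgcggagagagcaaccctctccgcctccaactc
Igf2bp3 promoter, chr6:49214905-49215204, minus strand: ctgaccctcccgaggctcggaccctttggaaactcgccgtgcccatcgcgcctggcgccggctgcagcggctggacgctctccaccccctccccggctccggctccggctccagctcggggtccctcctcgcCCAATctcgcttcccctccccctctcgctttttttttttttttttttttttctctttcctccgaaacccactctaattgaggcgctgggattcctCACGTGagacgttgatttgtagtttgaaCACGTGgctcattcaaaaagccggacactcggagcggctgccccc
The Hmga2 window was 69.0% C or T, and the Igf2bp3 window 65.0%, against a median of 49.67% over all 32851 promoter windows. These lie at percentiles 99.62 and 99.05 of those windows. The Hmga2 window held TCTCTCTC at 3 places, none overlapping another motif, and 3.93% of all windows hold it at least once. It also held 1 GC box match, which 35.7% of windows hold, and no match to the TATA box, CCAAT box or E-box letters. The Igf2bp3 window held 1 CCAAT box match, found in 37.4% of windows, and 2 E-box matches, of which 7.15% of windows hold at least 1. Such matches describe these letters and are not evidence of a bound factor.

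The E18.5 arrays had medians between 415 and 464 and the E11.5 arrays medians of 539 and 544, each scaled to a 2% trimmed mean of 1500. Mia itself, the gene misexpressed, averaged 38537 ± 6207 in bitransgenic lungs and 959 ± 194 in control lungs (SD, n = 3 each). The 3' to 5' signal ratio of the Actb control probe sets, a measure of RNA quality, was 1.65, 1.51 and 1.61 on the bitransgenic arrays and 1.5, 1.47 and 1.28 on the control arrays. That ratio was thus higher on every bitransgenic array than on every control array, and it moved with the group in all comparisons at E18.5. Since whole tissue was measured, fewer cells of a type and less RNA per cell cannot be told apart.

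Hmga2 had a higher signal in bitransgenic than in control lungs on all 4 of its probe sets. The gene lies on chromosome 10 (120361268 to 120476469, GRCm38.p6) and encodes the embryonic member of the HMGA proteins. Its brightest probe set, 1422851_at, read 4529, 3567 and 3895 on the bitransgenic arrays and 2086, 1743 and 1330 on the control arrays. The lowest bitransgenic value was thus well above the highest control value. The means were 3997 ± 489 in bitransgenic lungs and 1720 ± 379 in control lungs (SD, n = 3 each), a ratio of 2.32. On the scale of log2(signal + 86) the difference was 1.19 (SE 0.18).

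The probe set 1450780_s_at read 2905, 3920 and 2791 on the bitransgenic arrays, against 1815, 1474 and 2759 on the control arrays. Control 3 came within reach of the lowest bitransgenic value here, and the log2 difference was 0.68 (SE 0.23). The suffix _s marks a probe set whose probes can match more than 1 transcript in the array design. In mean log2 signal 1422851_at and 1450780_s_at lay at percentiles 82.2 and 81.5 of the table.

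The other Hmga2 probe sets were dimmer, near the median of the arrays. The probe set 1446196_at read 424, 429 and 496 on the bitransgenic arrays and 233, 167 and 245 on the control arrays, a log2 difference of 0.84 (SE 0.21). The probe set 1450781_at read 576, 432 and 513 on the bitransgenic arrays and 332, 332 and 334 on the control arrays, a log2 difference of 0.49 (SE 0.19). The control values of the last were nearly equal, and the bitransgenic values were spread over a wider range. The ratio of group means over the 4 probe sets ran from 1.52 to 2.32. Of the 4 probe sets, 3, all but 1446196_at, were designed on the same mRNA record, so they are not independent measurements.

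In all, 4 of 4 Hmga2 probe sets had groups that did not overlap, with bitransgenic above control, and over all 27022 probe sets past the filter on low signal 9.29% did. In the limma fit 1 of the 4, 1422851_at, was past the adjusted threshold towards higher signal, as were 0.163% of all probe sets. In the fit over genes Hmga2 was 1 of the 30 genes past it towards higher signal, 0.238% of 12625. Because Hmga2 was selected for this difference, the calls add nothing to the values. When the Actb ratio was added to the fit, the log2 difference of 1422851_at was 0.77 (SE 0.19) and that of 1450780_s_at was 1.26 (SE 0.22). Both kept their sign, while the smaller difference moved up and the larger moved down.

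**Figure D1:**
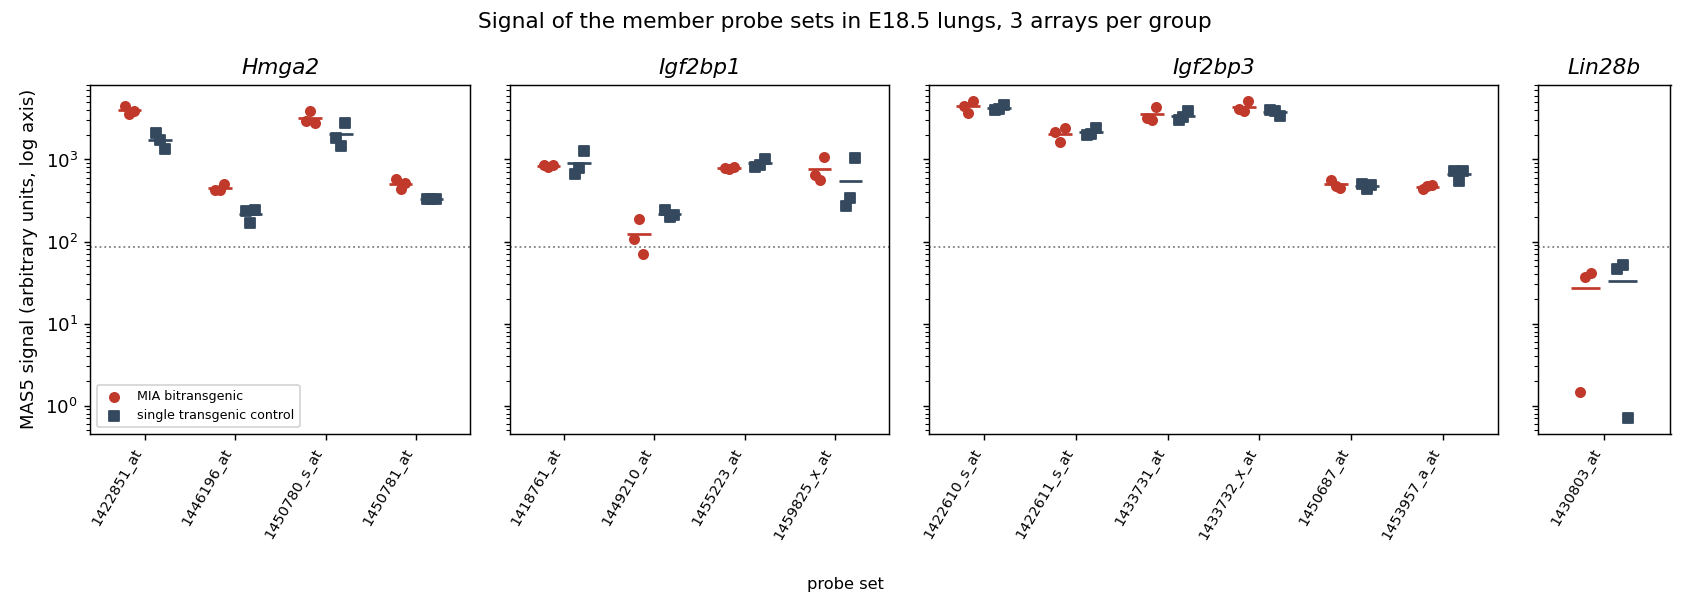
MAS5 signal (log axis) of the 15 probe sets in E18.5 lungs, with 3 bitransgenic arrays (red circles, left) and 3 control arrays (dark squares, right) for each, short lines at the group means and a dotted line at the pseudocount of 86. The 4 Hmga2 probe sets have all bitransgenic values above all control values, while most Igf2bp3 probe sets overlap and Lin28b lies below the dotted line.

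Igf2bp1, an mRNA-binding protein known in mouse for its part in embryonic growth, gave probe sets that did not go together. The gene lies on chromosome 11 (95957163 to 96005944). Its brightest probe set, 1418761_at, read 861, 800 and 855 in bitransgenic lungs and 666, 786 and 1269 in control lungs. The groups overlapped, and control 3 alone was above every bitransgenic array. The log2 difference was -0.057, with a 95% interval of -0.55 to 0.44 in the fit over genes, and it did not pass (limma adjusted p = 0.967). Without control 3 the difference was 0.19, so its sign rested on that array.

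The probe set 1455223_at read 790, 756 and 819 in bitransgenic lungs and 819, 867 and 1025 in control lungs. The bitransgenic values were all below the control values, but the highest and lowest of the facing groups were nearly equal. The log2 difference was -0.17 (95% interval -0.53 to 0.18, limma adjusted p = 0.781). Another, 1459825_x_at, whose suffix marks probes that can cross-hybridise, read 650, 557 and 1061 in bitransgenic lungs and 270, 342 and 1047 in control lungs. Bitransgenic 3 and control 3 were both far above the other arrays of their groups, and the log2 difference of 0.55 had a 95% interval of -0.35 to 1.45 (limma adjusted p = 0.729). With 1 array left out that difference ran from 0.23, without control 1, to 1.06, without control 3.

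The dimmest Igf2bp1 probe set, 1449210_at, was below the filter. It read 109, 189 and 70.1 in bitransgenic lungs and 245, 201 and 210 in control lungs. The bitransgenic values were below the control values, at signals close to the pseudocount, and the log2 difference without the filter was -0.58. Of the 4 Igf2bp1 probe sets 1 had a positive and 3 a negative difference. None of the 3 past the filter passed the limma threshold, and none had an unadjusted p under 0.05.

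Igf2bp3, which in human tumours is the family member most used as an oncofetal marker, was bright on 4 of its 6 probe sets and close to equal between the groups on most of them. The gene lies on chromosome 6 (49085218 to 49215469). The probe set 1422610_s_at, the brightest by mean log2 signal, read 4545, 3735 and 5090 in bitransgenic lungs and 4054, 4082 and 4563 in control lungs. Bitransgenic arrays were both the highest and the lowest of the 6. The log2 difference was 0.064 with a 95% interval of -0.27 to 0.39 (limma adjusted p = 0.938 over genes).

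The probe set 1433731_at averaged 3537 ± 755 in bitransgenic lungs and 3423 ± 463 in control lungs (SD, n = 3 each). The probe set 1433732_x_at averaged 4406 ± 685 in bitransgenic lungs and 3779 ± 312 in control lungs (SD, n = 3 each). The groups overlapped on both, with log2 differences of 0.034 and 0.21. On 1422611_s_at the averages were 2067 ± 402 in bitransgenic and 2149 ± 220 in control lungs (SD, n = 3 each), a log2 difference of -0.068. On 1450687_at they were 498 ± 54.8 in bitransgenic and 477 ± 31.5 in control lungs (SD, n = 3 each), a log2 difference of 0.049. The intervals of these 4 differences reached from -0.45 to 0.54 at their widest, and none passed.

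The remaining Igf2bp3 probe set, 1453957_a_at, read 438, 469 and 492 in bitransgenic lungs and 717, 548 and 714 in control lungs. Here the bitransgenic values were all below the control values, unlike the other 5 probe sets of the gene. The log2 difference was -0.43 (95% interval -0.82 to -0.03), and it did not pass (limma adjusted p = 0.487). Its unadjusted p was under 0.05, as for 9.57% of all probe sets. The suffix _a marks probes that match alternative transcripts of 1 gene. Whether its target differs from that of the other probe sets was not tested.

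Lin28b, on chromosome 10 (45376617 to 45486314), was at the bottom of the table. Its probe set 1430803_at read 1.45, 37.1 and 41.8 in bitransgenic lungs and 46.3, 51.3 and 0.71 in control lungs, all below the pseudocount, and its mean log2 signal lay at percentile 5.29. The groups overlapped and no fold change is given. Lin28a, the close relative of Lin28b that acts on the same microRNAs, also had both of its probe sets below the filter. At these signals, and without detection calls, neither a presence nor a difference of these transcripts was measurable.

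Over the 11 probe sets of Igf2bp1, Igf2bp3 and Lin28b, 5 had a positive and 6 a negative difference. In 3 of the 11, which include 1449210_at below the filter, the bitransgenic values lay below the control values without overlap, and in none above. Past the filter these were 2 of 9, and over all probe sets past the filter 7.3% lay below without overlap. Of the 9 past the filter none passed the limma threshold in either direction, against 0.444% of all probe sets, and 1 of the 9 had an unadjusted p under 0.05.

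**Figure D2:**
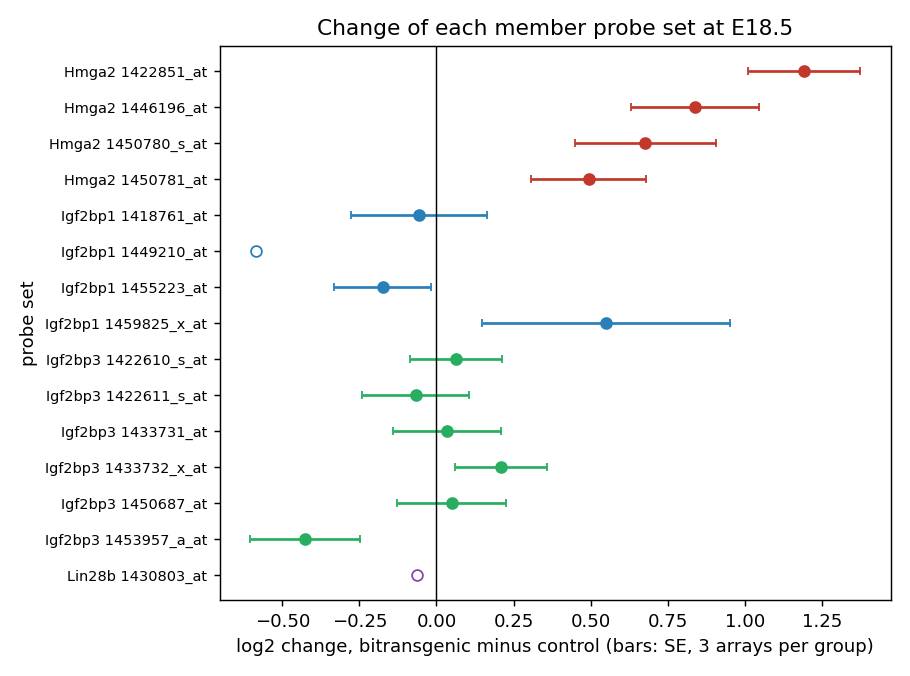
Log2 difference, bitransgenic minus control, of each of the 15 probe sets at E18.5, with bars for the SE of the limma fit. Open circles mark 2 probe sets below the filter. The 4 Hmga2 values lie between 0.49 and 1.19, and the Igf2bp1 and Igf2bp3 values fall on both sides of 0.

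The genes whose log2 values were most like those of Hmga2 over the 6 E18.5 arrays were Ugt8a, Fbn2, Mecom, Pik3ap1 and Bcl11b. They were the 5 with the highest Pearson correlation with 1422851_at among 1739 genes that ranged over at least 1 log2 unit, with r of 0.99, 0.99, 0.98, 0.98 and 0.98. Such correlations share the group difference and the arrays, and they are a description with no test. Ugt8a, an enzyme of galactosylceramide synthesis, read 1127, 939 and 947 in bitransgenic lungs and 475, 446 and 348 in control lungs. Mecom, a zinc finger transcription factor, read 15270, 15482 and 16415 in bitransgenic lungs and 8505, 7148 and 5795 in control lungs. In both genes every bitransgenic value lay above every control value, and control 3 was the lowest array. The same held on 1422851_at, but control 3 was lowest on none of the other Hmga2 probe sets. Genes chosen for following 1422851_at so closely mostly share both traits by that choice, so these are no separate result.

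Fbn2, the fibrillin of fetal elastic microfibrils, read 8605, 8144 and 8233 in bitransgenic lungs and 4999, 4854 and 4077 in control lungs. Pik3ap1, an adaptor of phosphoinositide 3-kinase signalling, had a log2 difference of 0.90, and Bcl11b, a zinc finger transcription factor known from T cells, of 0.93. The groups of these 3 genes likewise did not overlap, which the choice by correlation also makes likely. The log2 differences of Ugt8a, Fbn2, Mecom, Pik3ap1 and Bcl11b were 1.10, 0.84, 1.14, 0.90 and 0.93. With the Actb ratio in the fit they were 0.83, 0.65, 0.87, 0.51 and 0.60.

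**Figure D3:**
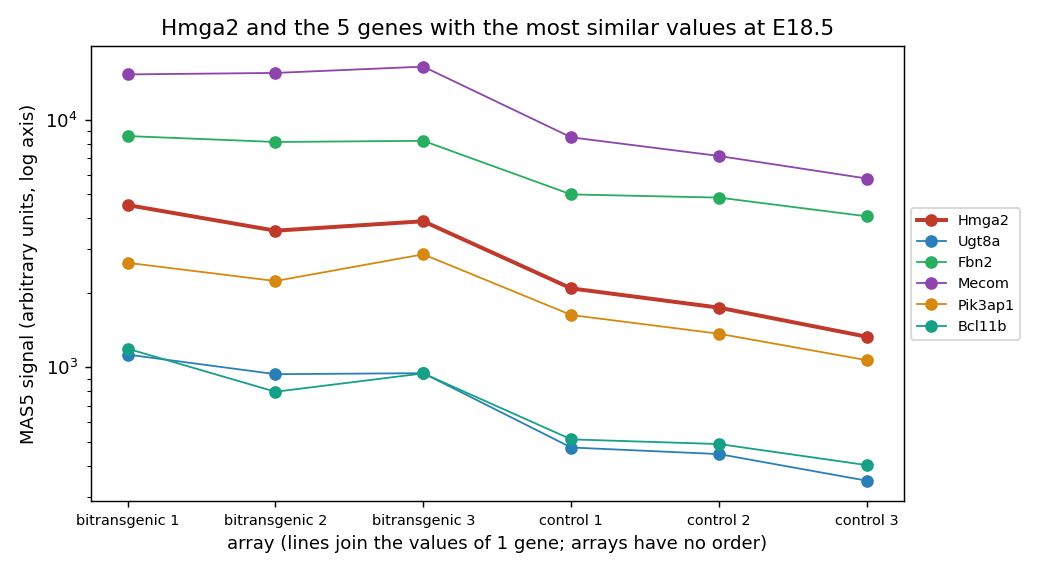
MAS5 signal (log axis) of Hmga2 (1422851_at) and of the 5 genes with the most similar log2 values, on the 3 bitransgenic arrays (left) and the 3 control arrays (right), with lines joining the values of 1 gene. All 6 genes are higher on every bitransgenic array than on any control array, and control 3 is their lowest array. For the 5 this follows largely from their choice by correlation with Hmga2.

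Among genes known as let-7 targets, 28 were listed beside the 6 genes considered, and 25 were past the filter. None of the 25 passed in limma. An unadjusted p under 0.05 was found for 3, as for 9.69% of all genes, and 4 passed with array weights, as did 10.6% of all genes. With probe sets averaged 1 passed, Pbx3. The median log2 difference was 0.052, against 0.014 over all genes. In 5 of the 25 the bitransgenic values lay above the control values without overlap, and over all genes 8.86% did.

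Mycn, a growth-promoting transcription factor of the distal lung tip, read 2597, 2455 and 2626 in bitransgenic lungs and 2030, 1723 and 2040 in control lungs. The groups did not overlap, but the log2 difference of 0.39 did not pass (limma adjusted p = 0.362). With the Mycn probe sets averaged it was 0.15 (limma adjusted p = 0.81). Pbx3, a homeodomain cofactor, and Thbs1, a matrix glycoprotein, had log2 differences of 0.57 and 0.44 (limma adjusted p = 0.364 and 0.484). The Pbx3 difference was 0.33 without control 3, 0.14 with the Actb ratio in the fit, and 0.64 with its probe sets averaged (limma adjusted p = 0.0478). Over the alternatives its adjusted p ran from 0.0215 to 0.939. Trim71, a let-7 target that encodes an embryonic RNA-binding ubiquitin ligase and which the microRNA processing list also holds, read 530, 467 and 660 in bitransgenic lungs and 302, 427 and 429 in control lungs, with a log2 difference of 0.44 (limma adjusted p = 0.576).

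Of 17 genes of let-7 and microRNA processing past the filter none passed in limma, 1 had an unadjusted p under 0.05, against 9.69% of all genes, and 1, Tut4, passed with array weights, against 10.6%. The differences of 15 were positive, and over all genes those of 6644 of 12625 were. The median was 0.16, against 0.014 over all genes. With the Actb ratio in the fit it was 0.098, against 0.026. Tut4, the terminal uridylyltransferase that LIN28A recruits to precursor let-7, read 7298, 7376 and 7801 in bitransgenic lungs and 6446, 5926 and 5707 in control lungs. The groups did not overlap, and the log2 difference was 0.31 (limma adjusted p = 0.421). Dgcr8, of the nuclear microRNA processor, and Dicer1, the cytoplasmic one, had log2 differences of 0.25 and 0.22 and did not pass. With its probe sets averaged the Dgcr8 difference was 0.066. Bitransgenic values lay above control values without overlap in 5 of the 17, and over all genes in 8.86%. Trim71 and Dicer1 are among these and also among the 5 such let-7 targets, so the counts of the lists are not separate.

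In the insulin-like growth factor axis none of 15 genes passed in limma, 3 had an unadjusted p under 0.05 (9.69% of all genes), and 3 passed with array weights (10.6% of all genes). Igfbp6, a binding protein with preference for IGF2, had the lowest p, with signals of 2977, 3949 and 3103 in bitransgenic lungs and 5216, 6632 and 9023 in control lungs. Its groups did not overlap, and the log2 difference was -1.01 (SE 0.20, limma adjusted p = 0.0733). It passed in 2 of 16 alternative settings, and its log2 difference was -0.48 with the Actb ratio in the fit. Igfbp5, another binding protein, read 17170, 16649 and 17026 in bitransgenic lungs and 12872, 12895 and 9621 in control lungs, a log2 difference of 0.53 (limma adjusted p = 0.179). Grb10, an adaptor that restrains growth, and Irs1, a receptor substrate, had log2 differences of 0.24 and 0.26 and did not pass.

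Igf2 itself, named although it falls outside the naming rule and after its values were seen, averaged 19942 ± 1826 in bitransgenic lungs and 21405 ± 2348 in control lungs (SD, n = 3 each). The log2 difference was -0.10 with a 95% interval of -0.38 to 0.18. Of 10 mRNAs known as Igf2bp targets, mostly from human cells, none passed in limma, 1 had an unadjusted p under 0.05 (9.69% of all genes), and 3 passed with array weights (10.6% of all genes). Mapt, the mRNA of the microtubule protein tau, had the lowest p and a log2 difference of -0.53 (limma adjusted p = 0.275). Cd44, a hyaluronan receptor, Gli1, a hedgehog effector, and Btrc, a ubiquitin ligase subunit, had 0.25, 0.39 and 0.26 and did not pass.

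Among 10 other genes of high mobility group proteins none passed in limma, 1 had an unadjusted p under 0.05 and 1 passed with array weights, shares close to the 9.69% and 10.6% of all genes. Hmgn3, a nucleosome-binding protein, read 8923, 9388 and 7139 in bitransgenic lungs and 6051, 5092 and 4233 in control lungs. The groups did not overlap, and the log2 difference was 0.72 (SE 0.17, limma adjusted p = 0.116). Tox, Tox3 and Hmg20b had log2 differences of 0.36, -0.33 and -0.28 and did not pass. The list's median was 0.082.

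Of 6 cyclin-dependent kinase inhibitors past the filter, Cdkn2b passed towards lower signal, 5 did not pass and none passed towards higher signal. Over all genes 0.436% passed towards lower signal. Cdkn2b, which encodes the cell cycle inhibitor p15, read 2337, 2899 and 1894 in bitransgenic lungs and 4192, 5478 and 4856 in control lungs. Every bitransgenic value was below every control value. The log2 difference was -1.01 (SE 0.18, limma adjusted p = 0.0409), and over the alternatives the adjusted p ran from 0.000513 to 0.676. It passed in 8 of 16 alternatives. With median centring, without the filter and without the trend it no longer passed (limma adjusted p = 0.0738, 0.0731 and 0.079). Nor did it pass without control 2, control 3, bitransgenic 1 or bitransgenic 3. When the Actb ratio was added to the fit, the difference was -0.82 (limma adjusted p = 0.676). Cdkn1b and Cdkn1a, the inhibitors p27 and p21, had log2 differences of -0.55 and -0.48, and Cdkn1c, an imprinted inhibitor, of 0.18, and these did not pass. With array weights 3 of the 6 passed, namely Cdkn2b, Cdkn1b and Cdkn1a, as did 10.6% of all genes.

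**Figure D4:**
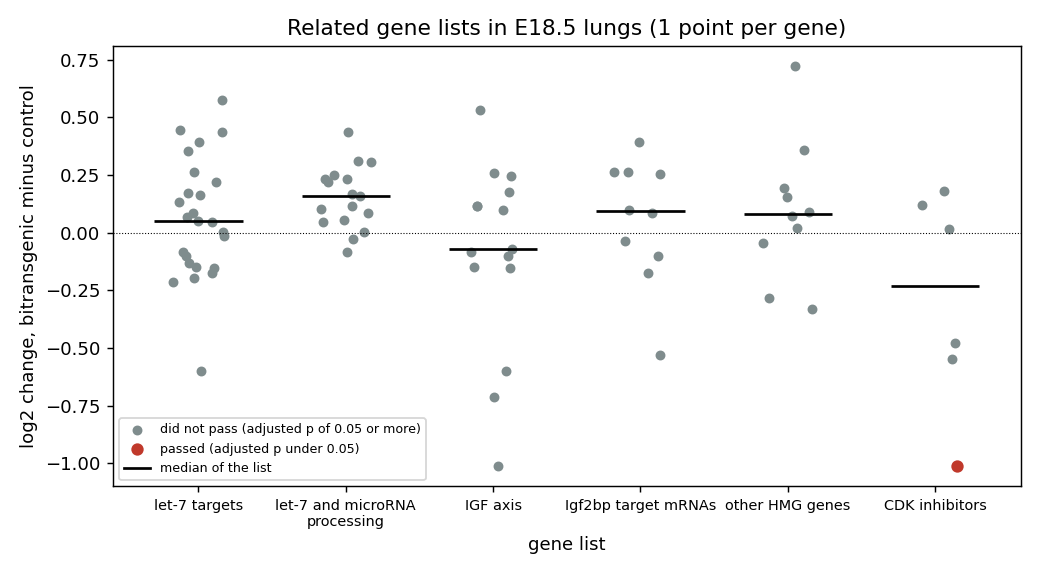
Log2 difference, bitransgenic minus control, of each gene of 6 related lists at E18.5, with the list's median as a line and genes past the adjusted threshold in red. Cdkn2b, at -1.01, is the 1 red point, and the medians lie between -0.23 and 0.16.

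Markers of other cells were read on the same arrays. Of 24 proliferation genes none passed in limma and none had an unadjusted p under 0.05, with a median of -0.062 and summed signals of 88465 to 116460 in bitransgenic and 91874 to 120780 in control lungs. Of 19 lung mesenchyme genes none passed and 2 had an unadjusted p under 0.05, against 9.69% of all genes. Their median was -0.12. Their summed signal was 326560 to 374120 in bitransgenic and 355560 to 431700 in control lungs, so that the groups overlapped. None of 13 distal tip and none of 16 pan-epithelial genes passed, with medians of 0.12 and 0.17, while 3 and 5 had an unadjusted p under 0.05, a share above the 9.69% of all genes.

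Most alveolar type II and endothelial markers moved with the group, but not Sftpc. In the type II list 7 of 13 genes passed towards lower signal, against 0.436% of all genes, and none towards higher. Of the 13 differences 11 were negative and 2 positive, and over all genes 5981 of 12625 were negative. The 2 were Etv5, at 0.076, and Sftpc, at 0.002. Sftpc averaged 85319 ± 11417 in bitransgenic and 84710 ± 3667 in control lungs (SD, n = 3 each). Sftpa1 averaged 1845 in bitransgenic and 41601 in control lungs, and Scd1 1214 and 38418, so these genes weigh heavily in the sum. The summed type II signal was 172840 to 216780 in bitransgenic and 401270 to 451540 in control lungs. In the endothelial list 1 of 13 genes, Car4, passed towards lower signal, again against 0.436%. All 13 differences were negative, with a median of -0.58. An unadjusted p under 0.05 was found for 10, against 9.69% of all genes. The summed endothelial signal was 74015 to 81811 in bitransgenic and 98412 to 141940 in control lungs. Of the cartilage, erythroid and neural lists, which were measured with 4 of 12, 4 of 9 and 2 of 10 genes past the filter, no gene passed, and their medians were -0.18, -0.44 and -0.52. The summed erythroid signal was 7914 to 9656 in bitransgenic and 13859 to 16782 in control lungs. The summed cartilage signal was 1927 to 2219 in bitransgenic and 2227 to 2406 in control lungs. The neural one was 949 to 1326 in bitransgenic and 1401 to 1996 in control lungs. None of these groups overlapped, but the cartilage ones nearly touched. Among single probe sets past the filter 7.3% lay below without overlap, and no such share was worked out for sums. The cartilage and erythroid lists each held 1 gene with a positive difference. The part of these cell types in the values of Hmga2 and its relatives was not tested.

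At E11.5 Hmga2 and Igf2bp1 were both among the brighter transcripts of lung and trachea. Hmga2, on probe set 99058_at, had a signal of 16744 in lung and 21882 in trachea, at percentiles 98.0 and 98.8 of the arrays. Igf2bp1, on 102627_at, had a signal of 11692 in lung and 10285 in trachea, at percentiles 96.8 and 96.5. The log2 difference, lung minus trachea, was -0.38 for Hmga2 and 0.18 for Igf2bp1 on the scale of log2(signal + 84). Neither reached 2-fold, the bound passed by 3.42% of 5114 genes compared. With 1 array per tissue there was no replicate and no test.

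The E11.5 and E18.5 tables come from different arrays that were scaled separately, with other probes, so no difference between the ages was computed. On the E18.5 arrays the brightest probe sets of Hmga2 and Igf2bp1 had mean log2 signals at percentiles 82.2 and 62.7. Among the related lists at E11.5, Igfbp3, a binding protein for both IGFs, read 534 in lung and 2251 in trachea, and Irs2, a receptor substrate, 192 in lung and 591 in trachea. These were the 2 of 9 compared genes of the insulin-like growth factor axis over 2-fold apart, both higher in trachea. Over all 5114 genes compared 115 were over 2-fold higher in trachea and 60 in lung. Irs2 was also the 1 of 17 compared let-7 targets over 2-fold apart, and Ago2, the small RNA-guided Argonaute, at 769 in lung and 1653 in trachea, was the 1 of 7 microRNA processing genes. Igf2 read 42623 in lung and 65288 in trachea, a log2 difference of -0.61. No gene of the other high mobility group, Igf2bp target or cyclin-dependent kinase inhibitor lists was over 2-fold apart, among 5, 9 and 4 compared. Of the lung mesenchyme markers 4 of 13 compared were over 2-fold higher in trachea, namely Twist1, Postn, Dcn and Mfap4, and 1, Foxf1, in lung, with a list median of -0.45. Of the cartilage markers Col9a3 and Col11a1, 2 of 4 compared, were over 2-fold higher in trachea, with a median of -1.19. So were 1 of 5 erythroid and 1 of 3 neural markers compared, while 1 of 3 type II markers, Sftpc, was over 2-fold higher in lung. The part of these tissues in the values of Hmga2 and Igf2bp1 was not tested. The genes named at E11.5 beside Hmga2 and Igf2bp1 were chosen after their values were seen.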

How the data were processed

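The deposited values are intensity, a linear signal per probe set made by the authors with MAS5, per the submitters' processing notes, with no version given and no detection calls. The values show that the authors scaled each array to a 2% trimmed mean of 1500. Control probe sets (64 and 66) were left out. Names came from the platform annotation, in which 34945 of 45037 probe sets at E18.5 and 10833 of 12422 at E11.5 had 1 symbol.

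Values were analysed as log2(signal + pseudocount), with the 20th percentile of the table (86 at E18.5, 84 at E11.5), which understates changes of dim probe sets. Genes were represented by their brightest probe set, and those under the 40th percentile of mean log2 signal were left out, which kept 12625 genes and 27022 probe sets. Bitransgenic and control arrays were compared with limma 3.58.1 (R 4.3.3, lmFit, eBayes with intensity trend, two-sided), once over genes and once over probe sets, adjusted by Benjamini-Hochberg over all of them with a threshold of 0.05. The p-values compare the group difference with the spread between these arrays, 3 per group, as moderated by eBayes over all genes or probe sets. The number of arrays limits the precision. Exact permutation of 3 against 3 cannot go below 0.1.

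The members, gene lists and tests were chosen with earlier results of these data known. Named were the 6 genes with all probe sets, up to 4 genes of smallest p and every called gene per related list, and the 5 genes most correlated with Hmga2. Arrays are numbered in deposition order. Loci and sequences are from RefSeq (GRCm38.p6). Alternatives were median centring, quantile normalization, no pseudocount or one 4 times as large, a filter at the 60th percentile or none, no trend, array weights, the Actb ratio in the fit, averaged probe sets, and each array left out.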

Additional observations from a re-analysis of the deposited data

How the results depend on the processing

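The Hmga2 difference stayed positive in all 16 alternatives to the gene fit. Its log2 value of 1.19 was 0.77 with the Actb ratio in the fit and 0.80 as the mean of its probe sets, and it ran from 1.03 to 1.34 with 1 array left out. The dim probe set 1446196_at ran from 0.51 to 1.08 over the pseudocounts. Igf2bp1 and Igf2bp3 passed in none of the 16 alternatives of the gene fit, with signs that depended on the setting. The Igf2bp1 gene, at -0.057, was 0.071 with array weights, 0.37 with the Actb ratio and 0.11 as the mean of its probe sets, and -0.23 to 0.19 with 1 array left out. Its probe set 1418761_at alone was 0.069 with array weights and 0.37 with the Actb ratio, and 1459825_x_at passed with array weights (log2 difference 0.73, limma adjusted p = 0.0415). The Igf2bp3 gene was -0.023 as the mean of its probe sets and -0.036 to 0.18 with 1 array left out, which also holds for its probe set 1422610_s_at. Its probe set 1433731_at was -0.034 with array weights and -0.13 to 0.14 with 1 array left out, 1422611_s_at -0.19 to 0.086 and 1450687_at -0.025 to 0.10. With the Actb ratio Hmg20b was 0.071, Irs1 -0.069, Igf2 0.020 and Cdkn1c -0.010, and Btrc was -0.13 as the mean of its probe sets.

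The genes called were 30 higher and 55 lower. They were 4 and 16 with the Actb ratio and 608 and 731 with array weights. The lower count was 32 without the filter and 36 without the trend. With 1 array left out the counts ran from 6 to 46 higher and from 16 to 51 lower, the smallest without control 2. Probe sets called, 120, were 20 with the Actb ratio, 63 without the filter, 54 without the trend and 3033 with array weights. Leaving out an array makes the samples smaller, and dropping the filter raises the number of genes tested. The cause of the changes in these counts was not tested. No paired analysis was possible because the labels give no replicate number shared between the groups. Dim signals limit Lin28b and the dimmest Igf2bp1 probe set.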

Other observations

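The Hmga2 pseudogene Hmga2-ps1, which is annotated apart from Hmga2, had 1 probe set at the edge of the filter. It read 270, 256 and 317 in bitransgenic lungs and 194, 248 and 268 in control lungs, with overlapping groups and a log2 difference of 0.19 (limma adjusted p = 0.855 over genes). Whether its probes share signal with Hmga2 was not tested.

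Among the lung mesenchyme genes Tbx4, a transcription factor of the lung bud, and Postn, a matrix protein, had log2 differences of -0.45 and -0.41, and Fgf10, the branching signal, of 0.48. None of these passed (limma adjusted p = 0.361, 0.373 and 0.599). Among the pan-epithelial genes Krt7 and Krt19, keratins of simple epithelium, had -0.50 and -0.48, while Epcam, an adhesion protein, had 0.63, and none passed (limma adjusted p = 0.233, 0.304 and 0.379).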
